A study of Mus musculus with 204 samples.

Results

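The genes described here encode 10 protein subunits of the mitochondrial respiratory chain and of the ATP synthase: Ndufs1, Ndufs3, Ndufb5, Ndufa1 and Ndufb11 of complex I, Sdhc of complex II, Cox5b, Cox7b and Cox4i2 of complex IV, and Atp5c1 of the ATP synthase. They were chosen by name, and all 10 were found among the 13153 gene rows that could be used in the deposited table. That table held 18 nuclear encoded subunit genes of these complexes in all. Levels are given in CPM (a gene's reads divided by all reads of the library, times 1e6). RNA was sequenced from 21 tissues of male wild-type C57BL/6J mice, an inbred strain that becomes obese on fat-rich food. Diet-induced obese (DIO) mice had eaten food with 60% fat for 10 weeks from the age of 4 weeks, and lean mice had eaten chow with 13.1% fat. The labels also give an age of 6 to 12 weeks at which mice were obtained, so the age is not settled by them. There were 102 DIO and 102 lean libraries, 5 of each per tissue with 3 exceptions. Subcutaneous fat had 5 lean and 3 DIO libraries, mesenteric fat had 3 lean and 4 DIO, and EDL, a fast muscle (the extensor digitorum longus), had 4 lean and 5 DIO. The labels tie no library to a mouse, and the series names 5 lean and 5 DIO mice, so tissues probably share mice and p-values measure the spread between libraries.

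Complexes I to IV sit in the inner mitochondrial membrane. They pass electrons from NADH and succinate to oxygen, and all but complex II pump protons. The ATP synthase lets the protons flow back to make ATP. Heart and oxidative muscle depend on this system for contraction. Brown fat is rich in it but spends most of the proton gradient as heat through an uncoupling protein, and its mitochondria are known for little ATP synthase relative to the chain. White adipocytes carry fewer mitochondria, and obesity has often been reported to lower their respiratory chain transcripts.

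The 10 genes lie on chromosomes 1, 2, 3 and X (coordinates of GENCODE M21, GRCm38). Ndufs1 (1:63143596-63176833) encodes the iron-sulfur subunit through which electrons leave the NADH-oxidising module, and Ndufs3 (2:90894634-90904827) a core subunit of the arm that reduces ubiquinone. Ndufb5 (3:32736990-32751566), Ndufb11 (X:20615326-20617619) and Ndufa1 (X:37187588-37191163) encode accessory subunits of complex I. Sdhc (1:171127165-171150603) encodes a membrane anchor of succinate dehydrogenase. Cox5b (1:36691449-36693681) and Cox7b (X:106015700-106022450) encode nuclear subunits of cytochrome c oxidase, and Cox4i2 (2:152754173-152765037) the alternative, oxygen-sensitive isoform of its Cox4 subunit. Atp5c1 (2:10056016-10080510) encodes the gamma subunit, the rotating stalk of the ATP synthase. Their exonic lengths ran from 419 bases (Ndufa1, 3 exon blocks) to 8086 bases (Ndufs1, 21 exon blocks). Exons of Ndufs1, Ndufs3, Ndufb5 and Ndufb11 share 498, 88, 616 and 117 bases with genes on the other strand. The kit marks strand, but whether the counting used it is not given in the sources used here, so a part of their reads could come from those neighbours.

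RefSeq promoters (GRCm38.p6) were held for 7 of the 10 members. Stretches before the start sites of the complex IV genes Cox7b (chrX:106015550-106015699, plus strand) and Cox5b (chr1:36691299-36691448, plus strand) are shown because these genes parted in several comparisons below. Short sites are shown for Ndufs3 (chr2:90904738-90904765, minus strand) and for the alternative start of Atp5c1 (chr2:10080433-10080460, minus strand), with the motif matches in capitals.
Cox7b: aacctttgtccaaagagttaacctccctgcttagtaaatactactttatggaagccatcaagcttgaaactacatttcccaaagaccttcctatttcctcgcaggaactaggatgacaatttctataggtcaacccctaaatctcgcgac
Cox5b: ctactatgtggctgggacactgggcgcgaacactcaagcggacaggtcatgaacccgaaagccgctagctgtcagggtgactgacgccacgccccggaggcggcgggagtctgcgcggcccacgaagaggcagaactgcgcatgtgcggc
Ndufs3: tcCCGCCCcgcgtCCGCCCGGAAGaaga
Atp5c1: cctgagctcccGCGCACGCgcactgagt
The 250 bases before Cox7b held 43.6% G or C, less than the median of 52.4% over 32851 promoters, and those before Cox5b 62.4%. The other members lay between 58.8% and 63.6%. Motifs were searched on both strands. The NRF1 core GCGCANGC was found in 1 of the 7 members (Atp5c1) and in 8.3% of all promoters, the ETS core CCGGAAG in 1 (Ndufs3) against 6.91%, and the SP1 box GGGCGG in 2 (Ndufs3, Ndufa1) against 32.7%. In the Ndufs3 site the SP1 boxes lie on the other strand, and the ETS core overlaps the nearer one. The short sites of Ndufs3 and Atp5c1 lie before a RefSeq start but inside the gene as GENCODE draws it. The other start of Atp5c1 had no match. The nuclear receptor motif AAGGTCA (4.08% of all promoters) and the YY1 core AAGATGG (4.49%) were found in none. These counts describe the letters in these windows only.

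Libraries held 6.58 M to 129.73 M reads (median 20.72 M, with M for 1e6), of which genes in the table took up to 23.1%. In 18 libraries a marker of another tissue was high, or the tissue's own marker was missing. The latter were adrenal DIO 1, DIO 2 and lean 1, where Hsd3b1, a steroid-making enzyme, lay at or below 0.173 CPM against a tissue median of 9132. Libraries also fell into classes. An index per library was formed as a difference of mean log2 levels, with Rpl39, Rpl22l1 and Cops9 on the positive side and Ncoa6, Ubap2l, Dynlrb1, Kantr and S100a1 on the negative side. It had a gap that parted the libraries of 10 tissues. In heart the largest gap of the index (2.34) set lean 5 alone, at -3.31 against -0.97 to -0.17 in the other lean libraries. Diet results are also given without the doubted libraries where that changed a call, and lean levels where it changed a stated order.

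In lean mice the 9 members other than Cox4i2 had means of 36.2 to 1030.1 CPM in every tissue. They were highest in brown fat, heart, soleus and stomach, and mostly lowest in the brain. Ndufs1 averaged 846 ± 44.0 CPM in brown fat (SD, n = 5), 710 ± 169 in heart, 624 ± 22.8 in soleus and 560 ± 26.3 in red gastrocnemius. Its range in red gastrocnemius did not reach that of the next tissue, EDL (331 ± 103 CPM, n = 4), while below EDL the ranges of all neighbours overlapped down to stomach (99.7 ± 36.8 CPM). Ndufs3 led in brown fat at 303 ± 25.0 CPM, and did not overlap the next tissue, heart (218 ± 41.7). Ndufb11 was likewise highest in brown fat (336 ± 24.1 CPM) and did not overlap heart (266 ± 34.1 CPM).

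Ndufb5 was highest in soleus (344 ± 13.4 CPM) and Sdhc in brown fat (421 ± 29.9 CPM). For Sdhc, soleus (389 ± 22.1 CPM) and duodenum (361 ± 40.4 CPM) followed with overlapping ranges. Ndufa1 had another order of means: stomach (234 ± 65.1 CPM), brown fat (231 ± 29.1 CPM), kidney (171 ± 7.72 CPM) and heart (142 ± 16.4 CPM). Brown fat did not overlap kidney, nor kidney heart, but the stomach libraries ran from 157 to 320 CPM, across the kidney range. The 3 skeletal muscles, which were near the top for other complex I genes, had 73.4 to 86.0 CPM of Ndufa1 on average. Cox5b and Cox7b were highest in stomach (654 ± 145 and 743 ± 231 CPM), with brown fat next (569 ± 33.2 and 583 ± 55.3 CPM), and the ranges overlapped. Atp5c1 was highest in heart (1030.1 ± 173 CPM) and soleus (939 ± 39.8 CPM), and soleus did not overlap red gastrocnemius (762 ± 17.2 CPM). Brown fat, which led for several chain genes, came sixth for Atp5c1 at 564 ± 49.9 CPM. Cerebral cortex had the lowest mean of Ndufs3, Ndufb5, Ndufb11, Sdhc, Cox7b and Atp5c1, hypothalamus that of Ndufa1 and liver that of Cox5b (125 ± 14.2 CPM). After median-of-ratios rescaling over all libraries the highest tissue of each gene was the same. Hypothalamus was then lowest for Ndufs3, Ndufb11 and Cox5b, cerebellum for Cox7b and cerebral cortex for Ndufs1. Liver then came to place 15 for Cox5b. EDL came next to brown fat for Ndufs3 (360 CPM) and Ndufb11 (403 CPM). Heart stood above kidney for Ndufa1, and brown fat came to place 5 for Atp5c1. Without the doubted libraries the highest tissue was the same for 10 of 10 genes. Stomach without lean 5 then had 701 CPM of Cox5b and 699 CPM of Cox7b. Over both diets, stomach Cox7b averaged 386 CPM in the 2 libraries of low index and 742 CPM in the 8 of high index.

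**Figure D1:**
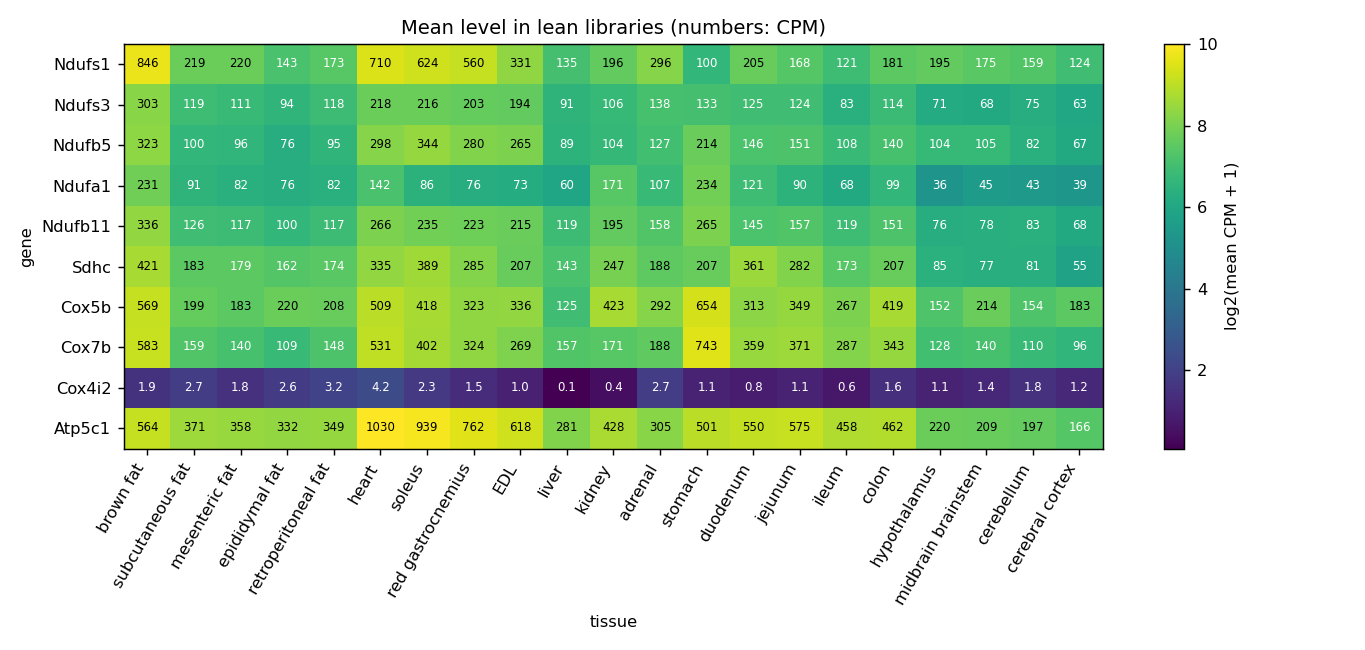
Mean CPM of the 10 genes (rows) in the lean libraries of 21 tissues (columns), with color for log2(mean CPM + 1) and the mean CPM printed in each cell. Brown fat, heart and the skeletal muscles stand high for most rows, brain regions low, and Cox4i2 lies below 5 CPM in each tissue.

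The highest tissue mean exceeded the lowest by up to 8.48-fold (Ndufs1), and least for Ndufs3, among these 9 genes. Of the 20 pairs of neighbours in the order of tissues, 0 (Ndufb5, Cox7b) to 3 (Ndufa1) had ranges that did not overlap, so most steps in the order were smaller than the spread. Levels of different genes can be compared only per length. Per kilobase of the principal transcript, the median over tissues was highest for Atp5c1 (367 CPM per kb) and Cox5b (338 CPM per kb), then Ndufa1 (197 CPM per kb) and Cox7b (188 CPM per kb), and lowest for Ndufs1 (73.4 CPM per kb) and Sdhc (59.2 CPM per kb). Over the 21 lean tissue means, the 36 pairs among the 9 genes had Pearson r of 0.34 (Ndufs1 with Ndufa1) to 0.92, with a median of 0.78. Against the mean of the others, Ndufb11 stood closest (r = 0.96) and Ndufs1 farthest (r = 0.65). The points share library classes and the scaling to total reads. Of 3450 genes ranked over the same 21 means, those most like the mean of the 9 by Spearman's rho included Atp5f1 (0.94), Ndufa8 (0.94), Atp5e (0.90) and Ndufc1 (0.87). These 4 are subunits of the same complexes.

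Cox4i2 stood apart from the other members. Its lean mean was 4.21 ± 0.960 CPM in heart (n = 5), 3.24 ± 1.64 in retroperitoneal fat and 2.73 ± 1.41 in subcutaneous fat, against 1.89 ± 0.224 in brown fat and 0.373 ± 0.101 in kidney. Without the doubted libraries its mean was 2.52 CPM in retroperitoneal fat (n = 2) and 1.89 CPM in subcutaneous fat (n = 3), beside 1.93 CPM in brown fat (n = 4), so subcutaneous fat no longer stood above brown fat. In liver 5 lean libraries held 6 of its reads in all and 5 DIO libraries also 6. Its tissue means followed the other members weakly (r = 0.22, n = 21 tissues). The genes most like it in rank were Hspa12b (rho = 0.85), Pdrg1 (0.84), Fgf2 (0.83), Aplnr (0.81) and 4930578C19Rik (0.81). Neighbours in its order of tissues overlapped except at the low end, from ileum to kidney to liver.

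Contrasts between lean tissues were fitted by limma to log2(CPM + 1) values, and each p was adjusted over every gene in the fit. Against the mean of the 4 white depots, all 9 tested members were higher in brown fat, where 13.8% of 2049 genes were called higher. Ndufs1 differed most at 2.19 ± 0.11 (log2 ± SE, 4.58-fold, adjusted p = 9.18e-14), followed by Cox7b at 2.12 ± 0.18 (4.33-fold). Atp5c1 differed least at 0.69 ± 0.12 (1.61-fold, adjusted p = 1.70e-05). The remaining 6 lay between 1.29 (Sdhc) and 1.85 (Ndufb5). The median of all genes in this contrast was -0.55, and rescaling by median-of-ratios factors raised the members to 1.25 (Atp5c1) to 2.76 (Ndufs1) with the same order at both ends.

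Heart exceeded the mean of the 3 skeletal muscles for 6 members, against 34.7% of genes called higher. The largest differences were those of Ndufa1 (0.85 ± 0.08, adjusted p = 1.45e-08) and Cox7b (0.68 ± 0.15), while Ndufb5 (0.01 ± 0.14), Ndufs3 (0.10 ± 0.15) and Sdhc (0.25 ± 0.14) did not pass. Ndufb11 (0.25 ± 0.10) was not called after rescaling. Without heart lean 5, the library of low index, 7 members were called. Soleus, a slow muscle, exceeded the fast EDL for 5 members (Sdhc 0.99 ± 0.21, Ndufs1 0.97 ± 0.18, Cox7b 0.64 ± 0.20, Atp5c1 0.63 ± 0.14 and Cox5b 0.32 ± 0.09), but 45.6% of all genes were also called higher. The median gene was 0.31 higher in soleus, and after rescaling Ndufs1, Sdhc and Atp5c1 were called. EDL libraries also fell into index classes.

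Between cerebellum and cerebral cortex, Sdhc (0.55 ± 0.13), Ndufs1 (0.36 ± 0.10), Ndufb11 (0.29 ± 0.11) and Atp5c1 (0.25 ± 0.08) were called higher in cerebellum, against 41.3% of genes. Cox5b was lower (-0.26 ± 0.09), against 22.4%. The median gene was 0.16 higher in cerebellum, and after rescaling only Sdhc (higher) and Cox5b (lower) were called. Both regions were parted by the index, and the higher calls numbered 7 without cerebral cortex lean 3 and 2 without cortex lean 2, 4 or 5 or cerebellum lean 3; Cox5b was not called without cortex lean 1, 2 or 4. Kidney exceeded liver for 8 members, most for Cox5b (1.75 ± 0.08, 3.37-fold) and Ndufa1 (2.82-fold), against 57.8% of genes called higher and 28.8% lower. The library index was -2.56 to -2.34 in lean kidney and 0.27 to 0.65 in lean liver, so index and tissue cannot be told apart here. Within groups Cox5b and Ndufa1 were not higher at a higher index, whereas Ndufs3, Ndufb5 and Cox7b had slopes of 0.25, 0.26 and 0.28 in log2 per unit. The median gene was 0.42 higher in kidney, and after rescaling 5 members were higher (Cox5b, Ndufa1, Sdhc, Ndufb11, Atp5c1) and 3 lower (Ndufs3, Ndufb5, Cox7b). Between duodenum and colon Sdhc was higher in duodenum (0.82 ± 0.15, adjusted p = 0.000659), where 18.1% of genes were called higher, and Cox5b lower (-0.43 ± 0.11), where 42.1% were. The median gene was at -0.29, and after rescaling 5 members were higher and Cox5b was not called (-0.13 ± 0.16). Without duodenum lean 3, 3 members were higher, and without colon lean 4, 2 were.

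The diet comparison asked which tissues of DIO mice held more or less of these transcripts. Each tissue was fitted alone, on genes whose mean reached 10 CPM, and "rose" and "fell" mean an adjusted p under 0.05. Cox4i2 did not reach that mean in any tissue, so 9 members were tested in each. Calls lay in the 5 fat depots, liver, jejunum and red gastrocnemius. In white fat every call was a fall.

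**Figure D2:**
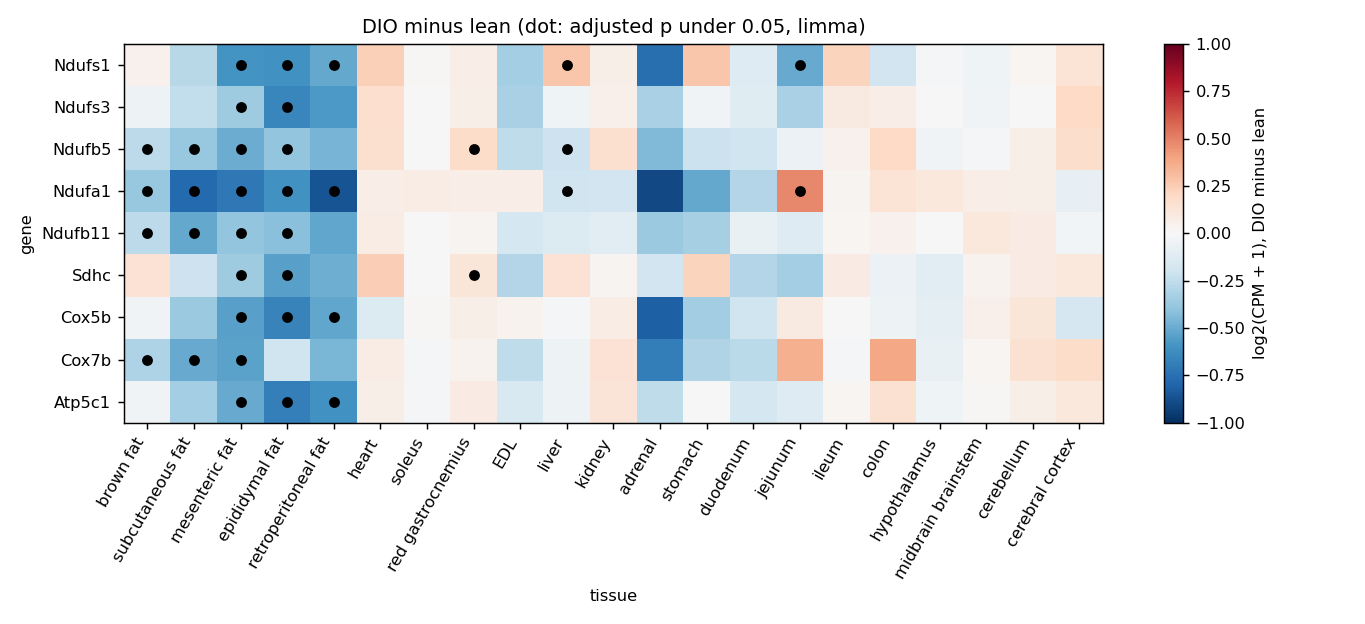
Difference of DIO minus lean in log2(CPM + 1) for 9 genes (rows) in 21 tissues (columns); dots mark an adjusted p under 0.05 by limma. Falls have 9 dots in mesenteric and 8 in epididymal fat. Retroperitoneal, subcutaneous and brown fat have 4 each, and the other columns hold few dots or none.

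In mesenteric fat all 9 tested members fell, where 6.90% of 2232 genes did. Ndufa1 was at 88.8, 92.6 and 64.3 CPM in the lean libraries and at 51.1, 46.9, 42.7 and 55.7 CPM in the DIO libraries. Ndufs1 was at 218, 233 and 210 CPM in lean and 151, 131, 162 and 139 CPM in DIO. Cox5b was at 187, 190 and 171 CPM in lean and 128, 127, 120 and 126 CPM in DIO. All DIO libraries lay below all lean ones for these 3 genes, and so they did for the other 6. How many of all genes lay apart in this way was not counted, here or in the tissues below. The falls ran from -0.35 ± 0.12 (Sdhc, adjusted p = 0.0493) to -0.71 ± 0.16 (Ndufa1, adjusted p = 0.0119), with Ndufs1 at -0.60 ± 0.11 and Cox5b at -0.54 ± 0.09. The median of the 9 was -0.51, while that of all genes tested was 0.40, and after rescaling the members lay between -0.72 and -1.08. DIO 1, 2 and 3 carried intestinal or lymphoid markers; with them left out 8 fell, the lone DIO library being assumed to vary like the others. There were 3 falls without lean 1 and 4 without lean 2.

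In epididymal fat 8 of 9 fell, against 17.8% of 2155 genes. Atp5c1 was at 329, 286, 331, 295 and 420 CPM in lean and 185, 198, 213, 194 and 233 CPM in DIO (-0.69 ± 0.13, adjusted p = 0.000923). Cox5b was at 215, 248, 240, 207 and 189 CPM in lean and 152, 152, 113, 157 and 119 CPM in DIO (-0.67 ± 0.14, adjusted p = 0.00120). Ndufb11, a membrane-arm subunit, was at 90.4 to 110 CPM in the lean libraries and 69.0 to 77.7 CPM in the DIO libraries (-0.42 ± 0.10). The groups did not overlap for these genes or for Ndufa1 (-0.60 ± 0.16). They overlapped for Ndufs3 (-0.65 ± 0.16), Ndufs1 (-0.61 ± 0.18), Sdhc (-0.54 ± 0.15) and Ndufb5 (-0.40 ± 0.15), where 1 DIO library each reached the lowest lean ones. Cox7b, at 83.4 to 133 CPM in the lean libraries and 77.5 to 110 CPM in the DIO libraries, did not pass (-0.20 ± 0.16, adjusted p = 0.298). With the median gene at 0.17, rescaling brought Cox7b to -0.39 ± 0.14 and adjusted p 0.0344, and all 9 were then called.

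In retroperitoneal fat 4 of 9 fell, against 10.0% of 2123 genes. Ndufa1 was at 68.4, 76.0, 132, 71.9 and 63.3 CPM in lean and 43.7, 45.1, 38.1, 38.5 and 51.4 CPM in DIO, without overlap (-0.86 ± 0.19, adjusted p = 0.00267). Atp5c1 (-0.60 ± 0.18), Cox5b (-0.52 ± 0.19) and Ndufs1 (-0.51 ± 0.17) also fell. The 5 that did not pass lay between -0.46 (Cox7b) and -0.57 (Ndufs3), with larger errors of 0.20 to 0.29. Lean 3 was the highest library for 8 of the 9, for example 282 CPM of Cox7b against 84.5 to 147 in the other lean libraries. Without it Ndufa1 (-0.68 ± 0.11), Atp5c1 (-0.46 ± 0.14) and Cox5b (-0.34 ± 0.11) fell. Without the 5 libraries that carried lymphoid, liver or muscle markers only Ndufa1 did (-0.49, adjusted p = 0.0323). The index parted these libraries into 2 DIO and 2 lean of low index and 3 and 3 of high index. Within the low class the 9 differences, taken from group means with no test, ran from -0.50 to -0.10, and within the high class, which holds lean 3, from -1.18 to -0.50. The index as a covariate gave 9 falls and rescaling 7; there were 2 falls without DIO 2 or lean 2, and 7 without lean 4.

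In subcutaneous fat (3 DIO, 5 lean) 4 of 9 fell, against 3.64% of 2198 genes. Ndufa1 was at 102, 95.4, 77.2, 76.5 and 105 CPM in lean and 52.3, 53.0 and 51.9 CPM in DIO (-0.78 ± 0.13, adjusted p = 0.0102). Ndufb11 was at 109 to 137 CPM in lean and 85.7, 93.1 and 84.4 CPM in DIO (-0.51 ± 0.10, adjusted p = 0.0189). Cox7b (-0.51 ± 0.13) and Ndufb5 (-0.38 ± 0.10) fell as well, and none of the 4 overlapped between groups; nor did Atp5c1 (-0.34 ± 0.14, not passed). Ndufs1, Ndufs3, Sdhc, Cox5b and Atp5c1 lay between -0.20 and -0.37 and did not pass. Lean 2 and lean 3 carried lymphoid markers; without them all but Ndufs1 fell. No member was called without any single DIO library, 2 were without lean 1, 2, 4 or 5 and 6 without lean 3; after rescaling Ndufa1 and Ndufb11 were called.

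**Figure D3:**
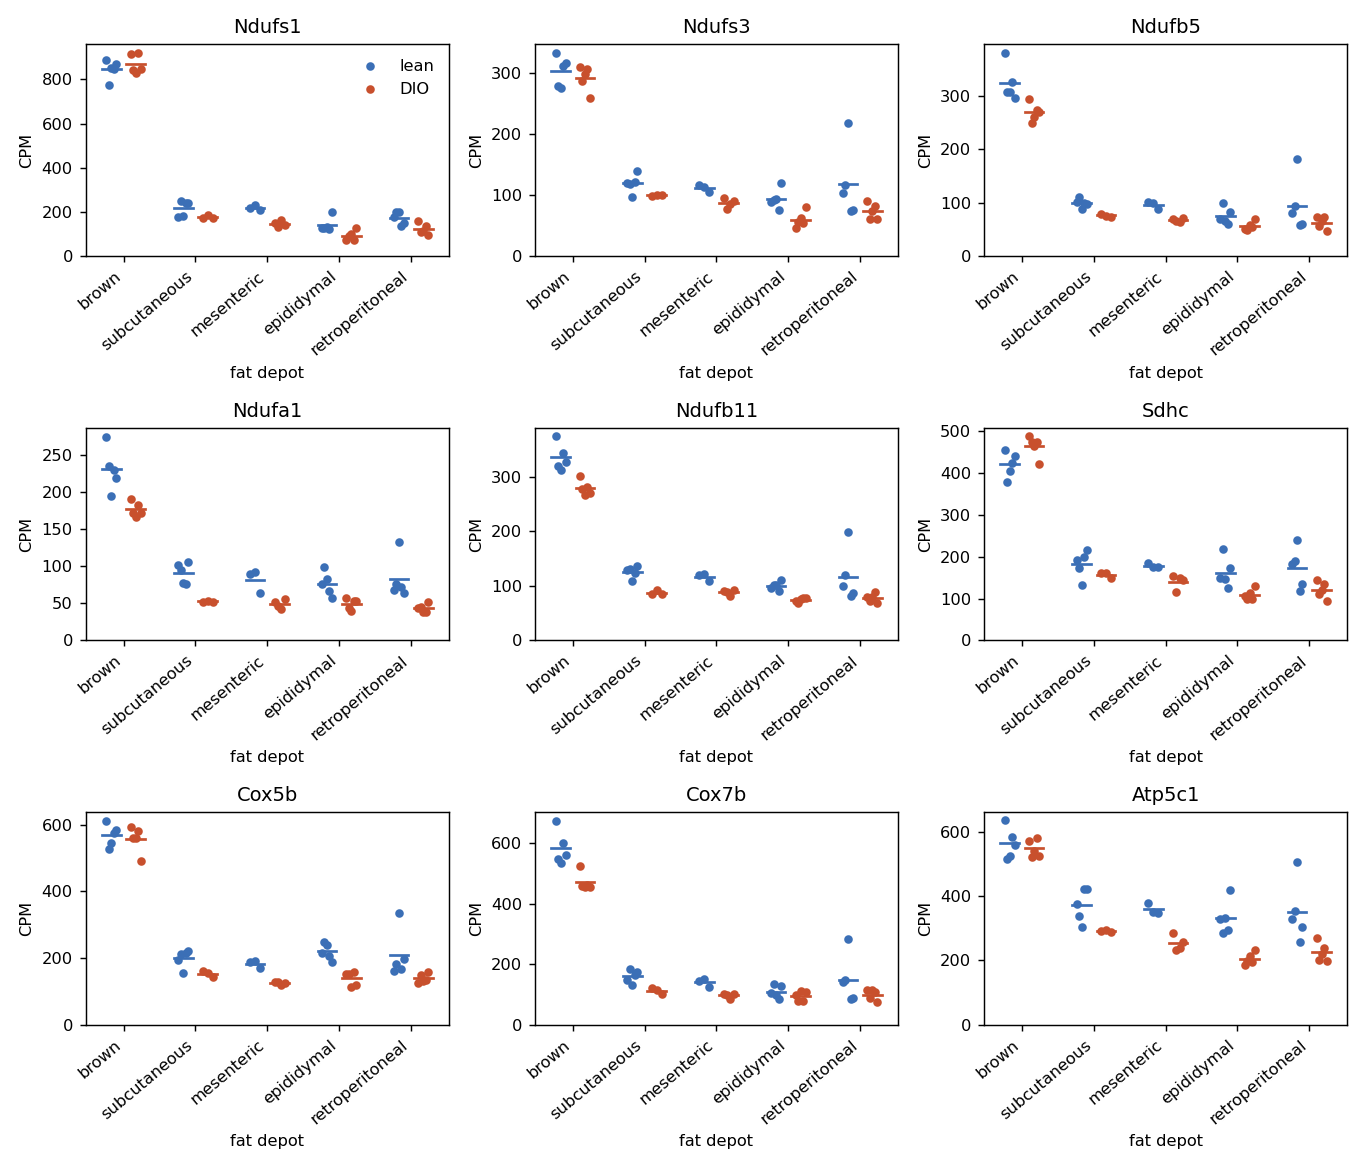
CPM of 9 genes in each library of the 5 fat depots (points; lean in blue, DIO in orange), with a line at the group mean of 3 to 5 libraries. White depots lie well below brown fat, DIO points lie lower in white fat, and retroperitoneal lean 3 stands above its group.

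The test of whether the diet effect differed between the 4 white depots called 0 of 9 members, while it called 38.6% of 2176 genes; the lowest adjusted p of a member was 0.466 (Atp5c1). By edgeR 0 members were called as well. Markers of cell types also differed with diet in these depots. All 4 macrophage markers (Ctss, Fcer1g, Mrc1, Atp6v0d2) had higher DIO means in mesenteric, epididymal and retroperitoneal fat, and 3 did in subcutaneous fat. Their summed level was 97.3 to 138 CPM in lean and 572 to 879 in DIO mesenteric fat, 120 to 178 and 1320 to 4060 in epididymal fat, 89.3 to 174 and 1050 to 3280 in retroperitoneal fat, and 89.1 to 572 and 212 to 324 in subcutaneous fat. The adipocyte markers Fabp4 and Irs1 summed to 12700 to 18700 CPM in lean and 3770 to 10300 in DIO epididymal fat, 12400 to 27300 and 5560 to 10300 in retroperitoneal fat, and 13500 to 15000 and 6800 to 13500 in mesenteric fat. In subcutaneous fat the ranges overlapped (8580 to 21000 and 15500 to 17600). None of these markers was at 0. With the mean of Fabp4 and Irs1 as a covariate, 0 members were called in epididymal fat and 0 in retroperitoneal fat, and that fit called 75 of 2155 and 54 of 2123 genes in all. The member differences in it ran from -0.69 to 0.09 (median -0.25) in epididymal and from -0.36 to 0.15 (median -0.08) in retroperitoneal fat. The marker sums did not overlap between the diets in either depot, so that fit cannot part diet from marker level. In these bulk libraries, fewer adipocytes and less RNA of a gene per adipocyte cannot be told apart.

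In brown fat 4 members fell, against 15.1% of 1746 genes, and 5 did not pass. Ndufa1 was at 274, 235, 195, 230 and 218 CPM in lean and 191, 172, 166, 182 and 171 CPM in DIO (-0.38 ± 0.08, adjusted p = 0.00309). Cox7b was at 672, 549, 535, 600 and 561 CPM in lean and 525, 458, 456, 461 and 454 CPM in DIO (-0.31 ± 0.07, adjusted p = 0.00468). Ndufb11 (-0.26 ± 0.06) and Ndufb5 (-0.26 ± 0.07) fell too, and all 4 had separate ranges. The core subunits did not pass. Ndufs1 was at 773 to 888 CPM in the lean libraries and 827 to 918 CPM in the DIO libraries (0.04 ± 0.06), and Ndufs3 differed by -0.05 ± 0.07. Sdhc lay at 0.14 ± 0.06, Cox5b at -0.03 ± 0.06 and Atp5c1 at -0.04 ± 0.07. So within complex I the 3 accessory subunit genes fell, while neither of the core subunit genes passed; the difference between genes was not tested. The same 4 were called with the index as a covariate, after rescaling and without the doubted libraries DIO 5 and lean 2; 4 were called with Ttn as a covariate and without each library in turn. Skeletal muscle markers (Tnnc2, Ttn, Neb) summed to 1.90 to 561 CPM in the lean libraries and 1.93 to 1370 CPM in the DIO libraries, and adipocyte markers to 7060 to 8310 and 7380 to 8200 CPM. The sums of macrophage, lymphoid, endothelial and pericyte markers did not overlap between groups in brown fat. The 4 macrophage markers, all with higher DIO means, summed to between 12.3 and 19.9 CPM in the lean libraries and between 20.4 and 63.7 CPM in the DIO libraries, and the 3 lymphoid ones (Cr2, Cd2, Cd247) to 0.868 to 2.13 and 2.58 to 3.72 CPM. Endothelial and pericyte markers were higher in DIO as well, with values given beside Cox4i2. Their part in the falls was not tested.

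The diet effect in brown fat was set against the mean effect in the 4 white depots by a test of the difference itself. It was higher in brown fat for Sdhc (0.54 ± 0.17, adjusted p = 0.0147), Ndufs1 (0.54 ± 0.16, adjusted p = 0.0126), Atp5c1 (0.50 ± 0.14, adjusted p = 0.00762) and Cox5b (0.49 ± 0.15, adjusted p = 0.0113). Of all 2143 genes 10.0% were called in that direction. The other 5 members did not pass, from Cox7b (0.12 ± 0.21) to Ndufs3 (0.40 ± 0.20, adjusted p = 0.131). Under each alternative run for this test 4 members were called, the same 4 after rescaling.

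Cox4i2 could be tested with diet only when genes down to a mean of 1 CPM were let in. In brown fat it was at 2.28, 1.75, 1.74, 1.84 and 1.85 CPM in lean and 2.14, 3.75, 2.77, 3.91 and 2.92 CPM in DIO, from 36 to 91 reads per library. It rose by 0.49 ± 0.13 (adjusted p = 0.0111) in that fit, in which 30.0% of 2771 genes rose. DIO 1 lay within the lean range. In mesenteric fat it was at 1.43 to 2.11 CPM in the lean libraries and 2.26 to 4.05 CPM in the DIO libraries, and in subcutaneous fat at 0.894 to 4.68 and 4.17 to 5.08 CPM; neither passed (adjusted p = 0.0919 and 0.208). Endothelial markers (Eng, Egfl7, Emcn) summed to 111 to 162 CPM in the lean and 238 to 293 CPM in the DIO libraries of brown fat, and the pericyte markers Rgs5 and Rgs4 to 287 to 343 and 471 to 608 CPM. Their part in the Cox4i2 difference was not tested.

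In liver Ndufs1 rose and Ndufb5 and Ndufa1 fell, where 20.9% of 1699 genes rose and 6.06% fell. Ndufs1 was at 126, 137, 130, 150 and 134 CPM in lean and 154, 160, 171, 168 and 166 CPM in DIO (0.27 ± 0.06, adjusted p = 0.00845). Ndufb5 was at 80.8 to 95.7 CPM in the lean libraries and 70.8 to 79.5 CPM in the DIO libraries (-0.21 ± 0.06), and Ndufa1 at 57.4 to 64.5 and 48.3 to 54.9 CPM (-0.20 ± 0.06). The groups did not overlap for these 3, and the other 6 lay between -0.13 and 0.14. The library index was 0.27 to 0.65 in lean and -0.11 to 0.13 in DIO liver, so index and diet cannot be told apart there. With it as a covariate none of the 3 was called, with Ndufs1 at 0.34 and adjusted p = 0.160. Neither fall was called without DIO 2, DIO 4 or lean 3. After rescaling Ndufs1 was not called (0.18, adjusted p = 0.0765), and Ndufb5, Ndufa1 and Ndufb11 fell.

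In jejunum Ndufs1 fell and Ndufa1 rose, against 6.58% of 2021 genes that fell and 3.56% that rose. Ndufs1 was at 130, 174, 192, 151 and 191 CPM in lean and 122, 120, 127, 88.2 and 132 CPM in DIO (-0.50 ± 0.15, adjusted p = 0.0485). Ndufa1 was at 115, 89.9, 83.1, 82.1 and 82.0 CPM in lean and 131, 110, 147, 121 and 121 CPM in DIO (0.48 ± 0.13, adjusted p = 0.0364). Each pair of groups overlapped by 1 library, lean 1 in both cases. Across the 4 intestine segments the diet effect differed for these same members, Ndufa1 (adjusted p = 0.0165) and Ndufs1 (adjusted p = 0.0451), where 16.1% of 2137 genes did. The Ndufa1 difference was -0.29 ± 0.11 in duodenum, 0.03 ± 0.14 in ileum and 0.14 ± 0.12 in colon, none of which passed. That of Ndufs1 was -0.13 ± 0.10 in duodenum, 0.22 ± 0.12 in ileum and -0.19 ± 0.15 in colon. After rescaling Ndufa1 was called in both tests (0.61 ± 0.16 in jejunum) and Ndufs1 in neither (-0.37 ± 0.14). Without the doubted libraries jejunum DIO 5 and ileum DIO 1 the segment test called Ndufa1 and Cox7b (adjusted p = 0.0272) and not Ndufs1. It called 3 members without duodenum lean 3 or jejunum DIO 5. It called 1 without any one of duodenum lean 1, 4 and 5 and DIO 2, 3 and 4, jejunum lean 2, 3 and 5 and DIO 1, 3 and 4, ileum lean 1, 2, 3 and 4 and DIO 1, 4 and 5, and colon lean 1 and 5 and DIO 2 and 4. The jejunum call of Ndufs1 was lost without any single library but DIO 5 and lean 1, and that of Ndufa1 without any but DIO 2, DIO 5 and lean 1.

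Red gastrocnemius had the smallest called differences. Sdhc was at 278 to 292 CPM in the lean libraries and 298 to 321 CPM in the DIO libraries (0.12 ± 0.03, adjusted p = 0.0466), and Ndufb5 at 265 to 297 and 289 to 335 CPM (0.18 ± 0.05, adjusted p = 0.0451). Both rose, where 3.29% of 1640 genes did, and the other 7 lay between 0.03 and 0.08. The skeletal muscle markers Tnnc2, Ttn and Neb, all 3 with lower DIO means, summed to between 26800 and 28700 CPM in the lean libraries and between 23100 and 25800 CPM in the DIO libraries, without overlap. Their part in the small rises was not tested. After rescaling, by edgeR and with the index as a covariate neither was called, and leaving out single libraries left 0 or 1 of the 2. The diet effect did not pass a test of difference between the 3 skeletal muscles for any member, nor between the 4 brain regions, tests that called 0.0614% of 1628 and 0% of 2426 genes.

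In the other 13 tissues 0 of 117 tests of a member passed by limma, and 43 of 27191 gene tests there passed (0.158%). At an unadjusted p under 0.05 by limma there were 13 of the 117, against 8.16% of all gene tests there. All but that of Cox7b in colon lay in adrenal, duodenum and kidney. There 281 of 2343, 455 of 2075 and 311 of 1979 genes had such a p. In duodenum all 9 members and all 8 further subunits of these complexes lay below 0 (medians -0.20 and -0.21), and none was called. Of the 10 assembly factors tested there, 6 lay above 0 and 4 below (median 0.04). How many of all genes lay below 0 was not counted. The median of all genes in duodenum was 0.11. The standard errors of the 117 differences ran from 0.04 to 0.33, with a median of 0.12. The widest differences were in adrenal, from -0.90 ± 0.21 (Ndufa1, 107 ± 31.2 CPM in lean and 55.9 ± 9.43 in DIO) to -0.19 ± 0.22 (Sdhc). Without the 3 adrenal libraries that lacked Hsd3b1 they were -0.61 ± 0.13 (Ndufa1, adjusted p = 0.123) to 0.14 ± 0.21 (Ndufs3). By edgeR 0 of the 117 passed and by DESeq2 1 did, while array weights called 19 and leaving out duodenum lean 3 called 4.

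The other genes of the pathway in the table were 8 further subunits and 13 assembly factors, of which Pet117 was listed at 0 in every library. In mesenteric fat 5 of 8 subunits and 5 of 11 tested assembly factors fell, led by Ndufa10 (-0.96 ± 0.10), an accessory complex I subunit. In epididymal fat 6 of 8 and 5 of 9 fell, with Ndufa10 at -0.87 ± 0.12. In retroperitoneal fat 2 of 8 and 2 of 10 fell, with Ndufa10 at -0.82 ± 0.18 and Tmem70, an ATP synthase assembly factor, at -0.62 ± 0.20. In none of these 3 depots did a gene of either list rise. Subcutaneous fat had 2 falls among subunits, and among assembly factors 2 falls, led by Cox20 (-0.54 ± 0.08), and 1 rise, Acad9 (0.65 ± 0.11), where 8.83% of genes rose. Of all genes tested, 6.90% fell in mesenteric, 17.8% in epididymal, 10.0% in retroperitoneal and 3.64% in subcutaneous fat.

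In brown fat 2 of the 8 other subunits fell, where 15.1% of all genes did. Among them was the accessory gene Ndufb3 (201 ± 22.8 CPM in lean and 159 ± 7.62 CPM in DIO, -0.34 ± 0.07). In liver 3 of 11 assembly factors rose, led by Acad9 (0.44 ± 0.08) and Uqcc1 (0.31 ± 0.06), near the 20.9% of all genes. There 1 of 8 subunits fell, against 6.06% of all genes. With the index as a covariate 0 genes of both lists were called there. In jejunum Ndufa10 fell (-0.45 ± 0.13), where 6.58% of all genes did. In red gastrocnemius 2 subunits, Ndufb3 (0.21 ± 0.04) among them, and the assembly factor Coa5 (0.19 ± 0.04) rose, against 3.29% of all genes. Cytosolic ribosomal protein genes, a list of 14, had median differences of 0.71 (mesenteric), 0.60 (epididymal) and 0.30 (retroperitoneal), beside 0.40, 0.17 and 0.25 for all genes. In these depots 5, 9 and 1 of the 14 rose, against 38.0%, 36.3% and 35.0% of all genes. After rescaling 0, 4 and 0 rose, and the medians were 0.34, 0.41 and 0.03, with 9 of 14 above 0 in retroperitoneal fat. In subcutaneous fat the ribosomal median was -0.75 and none passed. The mean log2(CPM + 1) of the 14 was 8.52 and 9.11 in lean 2 and lean 3, which carried lymphoid markers. It was 7.53 to 7.67 in the other lean libraries and 7.26 to 7.40 in DIO. In mesenteric DIO 2 (Cr2 at 269 CPM) it was 8.90, against 7.67 to 8.02 in the other DIO libraries. The part of these libraries in the medians was not tested. The members' medians were -0.51, -0.60, -0.52 and -0.37 in these 4 depots. In liver all 14 ribosomal protein genes fell (median -0.35, members -0.05), and 0 did with the index as a covariate. Rpl39 is in both this list and the index, and the index did not overlap between the diets in liver. That fit therefore cannot part diet from index.

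**Figure D4:**
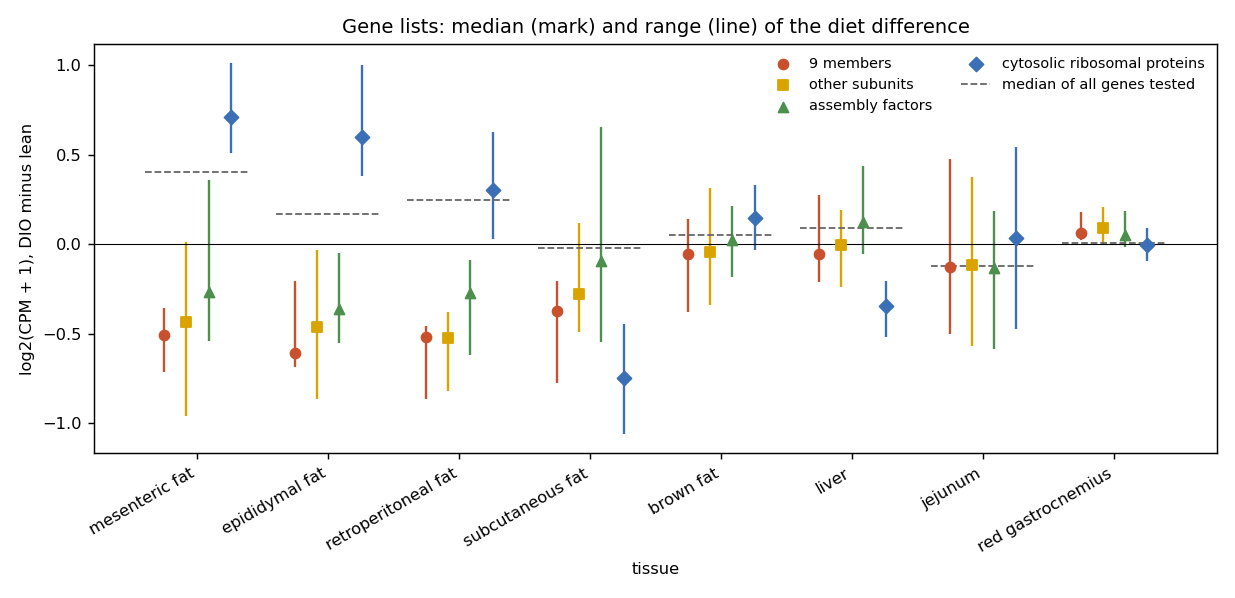
Median (mark) and lowest to highest (line) difference of DIO minus lean in log2(CPM + 1) for the 9 tested members, 8 other subunits, tested assembly factors and 14 ribosomal protein genes in 8 tissues, with the median of all genes dashed. In mesenteric, epididymal and retroperitoneal fat the 3 mitochondrial lists lie below 0 at their medians and the ribosomal list above it.

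The relation of the members to the library index was measured within groups, over 204 libraries after subtraction of each group's mean. Cox7b (r = 0.84), Ndufs3 (0.83), Ndufb5 (0.83), Sdhc (0.76), Ndufb11 (0.71), Atp5c1 (0.71) and Ndufs1 (0.62) were higher in libraries of higher index, by 0.14 to 0.28 in log2 per unit. Ndufa1 (-0.08), the shortest member, and Cox5b (-0.27) were not, and Cox4i2 was at 0.04. No relation of these values to length was tested. Libraries share depth and scaling, and no p is given. In epididymal fat, where the index was -1.54 to 0.37 in DIO and -2.17 to -0.15 in lean, its use as a covariate gave 9 falls instead of 8. Within its low class (3 DIO, 4 lean) the differences of the 9 members ran from -0.75 to -0.30, and within its high class (2 DIO, 1 lean) from -0.91 to -0.22.

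**Figure D5:**
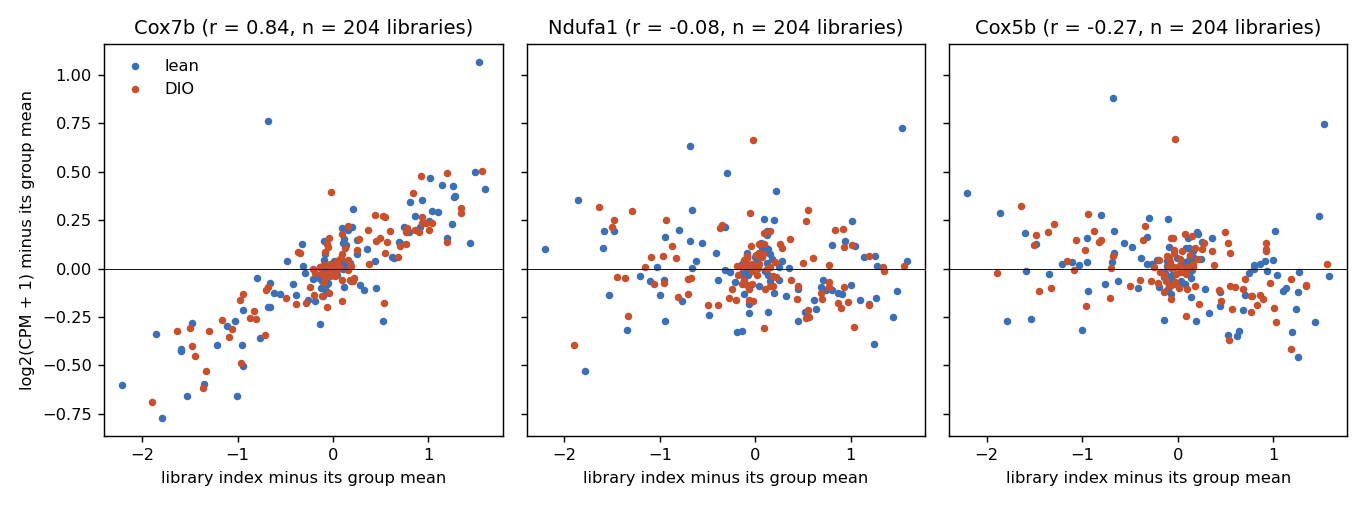
Deviation of log2(CPM + 1) from the group mean against the deviation of the library index from its group mean for Cox7b, Ndufa1 and Cox5b in 204 libraries (points; lean in blue, DIO in orange). Cox7b follows the index (r = 0.84), while Ndufa1 (r = -0.08) and Cox5b (r = -0.27) do not.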

How the data were processed

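RNA of 21 mouse tissues was sequenced from TruSeq stranded mRNA libraries as paired reads, per the labels' protocols. Tools named by the submitters' processing notes are DESeq2, HTSeq, STAR and FastQC. Their versions and settings, the genome build and what was done with reads shared by gene copies were not given in the sources used here. Values in the deposited table are CPM made by the authors, for 13154 genes. One column matched no sample and 1 incomplete gene was left out; 13139 identifiers had a symbol in GENCODE M21. Whole reads were recovered (100% of values within 0.001 read). Among 398 replicate pairs the lowest chi-square per degree of freedom was 3.48, so none was taken as a duplicate.

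DIO was compared with lean in each tissue by limma 3.58.1 (trended variance) on log2(CPM + 1), a pseudocount of 1, for genes whose mean reached 10 CPM, with Benjamini-Hochberg adjustment over those genes and a threshold of 0.05. A fold on this scale understates changes of low genes. Differences between tissues were tested by limma contrasts of group means. Alternatives were a pseudocount of 5, no filter, a mean of at least 1 CPM, median-of-ratios rescaling, array weights, a single fit, edgeR 4.0.16 and DESeq2 1.42.0 on recovered reads, each library left out, doubted libraries left out, and covariates (index, class, Ttn, adipocyte markers). A library was doubted when a marker of another tissue reached 20 CPM and 10 times the tissue median, or its own marker lay 10 times or more below that median. Fits were run on simulated counts with known changes and a single dispersion, with outcomes not reported here. The simulation held no library classes, doubted libraries or shared mice, so it cannot speak to their effects. All 10 members were named; of other pathway genes, at most the 2 largest called changes per tissue, with some results not reported here. Members and lists were chosen with earlier results of these data known. R was 4.3.3.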

Additional observations from a re-analysis of the deposited data

Results flagged for a closer look

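Dixon's test for a single far value was run over 40 groups for the mean of the 9 members and over 59 groups for members called with diet; it marked 1 and 6 groups, where chance marks about 1 in 20. Cerebral cortex lean 3 had a mean log2(CPM + 1) of 6.68 over the 9 members, against 6.29 to 6.37 in the other lean libraries, and its index was -0.37. Cox7b was at 525 CPM in brown fat DIO 1 (others 454 to 461). Ndufs1 was at 202 CPM in epididymal lean 5 (others 124 to 131) and at 88.2 CPM in jejunum DIO 4 (others 120 to 132). Ndufa1 was at 115 CPM in jejunum lean 1 (others 82.0 to 89.9). In retroperitoneal lean 3, Cox5b was at 336 CPM (others 160 to 196) and Ndufa1 at 132 CPM (others 63.3 to 76.0).

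Effects of diet that differed between tissues by a test of the difference were those of Ndufs1 (adjusted p = 0.0451 by limma) and Ndufa1 (adjusted p = 0.0165) among intestine segments. The difference of brown from white fat was 0.49 for Cox5b, 0.54 for Ndufs1, 0.54 for Sdhc and 0.50 for Atp5c1 on the log2 scale. Without the doubted libraries the intestine test no longer called Ndufs1, called Cox7b (adjusted p = 0.0272) and gave Ndufa1 an adjusted p of 0.0165.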

How the results depend on the processing

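Of 1585 recomputed values of single members, 1376 kept direction and side of the threshold, 192 kept direction and lost the call, 10 moved and 7 reversed. The cause was not tested. With the adipocyte covariate, 0 members fell in epididymal and 0 in retroperitoneal fat, and Ndufs1 (0.078), Ndufs3 (0.091) and Ndufb5 (0.0036) reversed in epididymal fat. The sums of these markers did not overlap between the diets in either depot, so that fit cannot part diet from marker level. In retroperitoneal fat (4 falls) there were 2 with no filter, 7 rescaled and with the class term, 9 with a single fit, edgeR, DESeq2 and the index, and 1 without doubted libraries. In subcutaneous fat (4) there were 2 with no filter, rescaled and by edgeR, 9 with array weights and 8 without doubted libraries. In brown fat (4) a single fit gave 1. In liver, falls (2) were 0 with a single fit and the index; rises (1) were 0 rescaled, with a single fit, by edgeR and with the index, and 2 with array weights. In jejunum, falls (1) were 0 with no filter, a mean of 1 CPM, rescaled, by edgeR and by DESeq2; rises (1) were 0 with no filter. In red gastrocnemius, rises (2) were 0 with no filter, a mean of 1 CPM, rescaled, a single fit, edgeR and the index. The other 13 tissues (0) had 19 calls with array weights, 8 with a single fit and 1 by DESeq2. The intestine test (2) called 1 with no filter and rescaled.

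Between lean tissues, soleus over EDL (5) gave 3 rescaled and by edgeR; cerebellum over cortex (4) gave 1 rescaled and 2 by edgeR; kidney over liver (8 higher, 0 lower) gave 5 and 3 by both, with Ndufs3 at -0.22 and -0.21 and Ndufb5 at -0.21 and -0.19; duodenum over colon (1 higher, 1 lower) gave 5 and 0 by both, and 2 lower with no filter. Leaving out single libraries gave falls of 3 to 9 in mesenteric, 7 to 8 in epididymal, 2 to 7 in retroperitoneal, 0 to 6 in subcutaneous, 4 to 4 in brown fat, 0 to 2 in liver and 0 to 1 in jejunum, and rises of 1 to 1 in liver, 0 to 1 in jejunum and 0 to 1 in red gastrocnemius. The other 13 tissues had 0 to 4. Tests between tissues gave 0 to 0 in white fat, muscle and brain, 1 to 3 in intestine and 4 to 4 for brown against white fat. Higher calls were 9 to 9 (brown over white fat), 5 to 7 (heart), 5 to 7 (soleus), 2 to 7 (cerebellum), 8 to 9 (kidney) and 1 to 3 (duodenum); lower calls were 0 to 1, 0 to 0 and 1 to 1 in the last 3. No analysis paired by mouse was possible, because the labels tie no library to a mouse. Tests between tissues took their libraries as independent, though tissues probably share mice.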
